A study of Mus musculus with 6 samples.

Results

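Olfactory, vomeronasal and taste receptor genes were examined in the neocortex of Khsrp-/- mice. KHSRP is an RNA-binding protein that destabilises mRNAs with AU-rich elements. The 3 KHSRP-KO and the 3 WT arrays held RNA from the cortex of adult male mice, with littermates as WT, and no treatment is labelled for either genotype. Per the study's methods the deletion in the KHSRP-KO mice is constitutive, so any cell type of the cortex could contribute to a difference. In bulk tissue, fewer cells of a type and less RNA per cell cannot be told apart. The genotype of each sample was taken from the labels, as Khsrp was not measured here.

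The members were the 31 genes whose symbols in the study's table of changed genes began with Olfr, Vmn1r, Vmn2r, Tas1r or Tas2r, of 1714 gene symbols named there and of 60915 probes on the array. A further symbol that matches the rule, 1 of 32, was left out by it. The table has a block of 1522 probes higher in KHSRP-KO and a block of 266 entries lower in KHSRP-KO, and 21 and 10 of the members came from them. Members therefore made up 1.38% of the higher block and 3.76% of the lower block. The table was selected on the KHSRP-KO against WT contrast of these same arrays, so every difference between the genotypes below is a description of genes chosen by that difference and carries no test. Receptor genes outside the table have no symbol here, and how the whole receptor repertoire behaved was not analysed.

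Odorant receptors, named Olfr in the mouse, are G protein-coupled receptors of olfactory sensory neurons, each of which expresses one of them and signals through Golf, Adcy3 and a cyclic nucleotide-gated channel. Vmn1r receptors belong to the apical neurons of the vomeronasal organ and Vmn2r receptors, which carry a large extracellular domain, to its basal neurons. Tas1r and Tas2r receptors serve sweet, umami and bitter taste. Many of these genes are also transcribed at low level outside the sensory epithelia, where their roles are mostly unsettled. The members comprised 17 Olfr genes, 12 in the higher and 5 in the lower block, 6 Vmn1r genes, 4 higher and 2 lower, 6 Vmn2r genes, 4 higher and 2 lower, Tas1r3 in the higher block and Tas2r113 in the lower block.

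Each member was measured by 1 probe and 1 spot per array. The signals are fluorescence intensities of 1 dye, and the values compared below are log2 of the processed signal minus the 75th percentile of the array, here called the scaled signal. As scanned, that percentile ranged from 343.5 to 496.8 across arrays. KHSRP-KO 1 and WT 3 carry the same scan time in their file headers, KHSRP-KO 2 and KHSRP-KO 3 share another, and WT 1 and WT 2 a further one. Over the probes tested, the scaled signals of KHSRP-KO 1 correlated at 0.990 with those of WT 3, against 0.976 and 0.978 with the other KHSRP-KO arrays. With WT 1 and WT 2, which have another scan time, they correlated at 0.9805 and 0.9809, also above the other KHSRP-KO arrays. The part of scan time in this was not tested. The difference between KHSRP-KO 1 and WT 3, the only one within a scan time, is given beside the difference over all arrays. It rests on 1 array per genotype. A fit with scan time as a block gives this same difference, because the other scan times each hold 1 genotype.

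Markers of the cells in which these receptors normally act were looked for in the same table. None of 8 markers of olfactory sensory neurons, of 4 of vomeronasal neurons or of 5 of taste cells was named in it, so their levels were not analysed here. Of 46 genes of receptor signalling and receptor choice, 3 were named, all in the higher block. They were Reep1, a member of a family of receptor-trafficking proteins (scaled log2 difference 0.80), Ncam2, an adhesion molecule of olfactory axons (0.89), and Camk4, a calcium-dependent kinase (0.41). From 5 olfactory bulb markers, Doc2g (0.35) and Th, the rate-limiting enzyme of dopamine synthesis (0.88), were named, and Th was well above background on 2 of 6 arrays. Of 15 neocortex markers, Snap25 (0.55) and Slc1a2 (0.48) stood in the higher block and Camk2a (-0.86) in the lower block. These 3 were bright, with mean scaled signals of 5.06, 4.97 and 5.77 in WT. The part of cells of another type in the receptor results was not tested.

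Detection came first, since most members were dim. On the KHSRP-KO arrays 1 to 3, 31, 28 and 29 of the 31 members were well above background by the scanner's mark, and on the WT arrays 26, 25 and 25. Among all non-control spots the shares were 82.6, 71.3 and 76.7% for KHSRP-KO and 79.9, 78.8 and 77.4% for WT. Membership in the higher block favours genes seen in KHSRP-KO, so the larger number there is not a finding. Altogether 25 members were well above background on all 6 arrays, among them all 10 of the lower block and 15 of the higher block (71.4%). In the rest of the higher block the share was 92.5%. A stricter yardstick came from 15 negative-control sequences with 20 spots each, 2 of which gave signals of 17.7 to 43.7. The 95th percentile of these 300 spots was 35.2, 20.8 and 26.4 on the KHSRP-KO arrays. On the WT arrays it was 43.6, 38.8 and 28.9. Above it stood 26, 27 and 25 members on the KHSRP-KO arrays and 20, 22 and 19 on the WT arrays. As the level differed between arrays, these counts are not compared between the genotypes. The share of all probes above it was not computed. That level was passed on every array by 17 members and on none by Olfr1424.

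**Figure D1:**
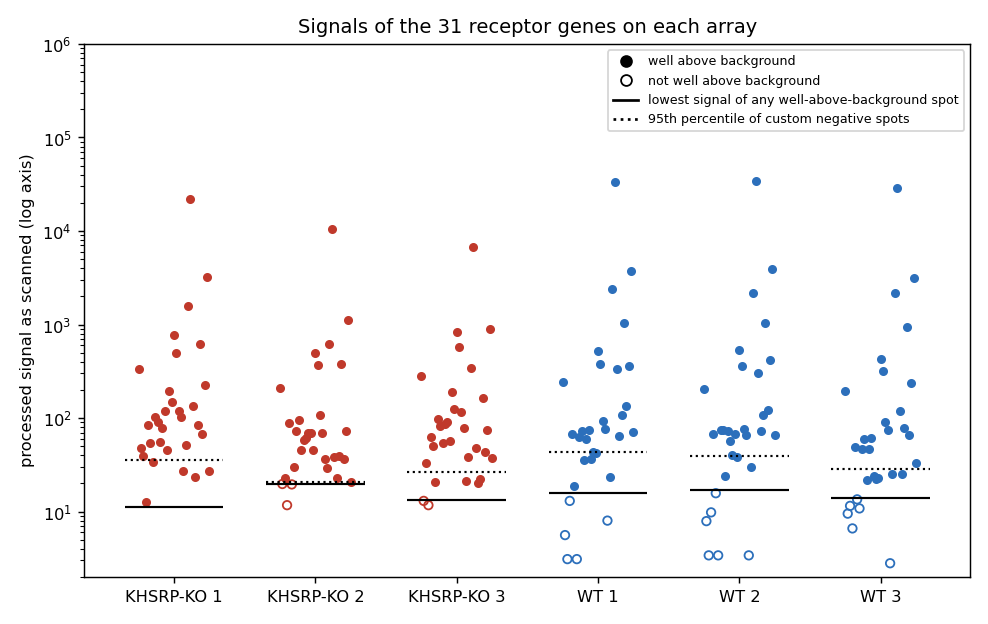
Processed signal as scanned (log axis) of the 31 receptor genes on each of the 6 arrays, 1 point per gene, filled where the spot was well above background. The solid line is the lowest well-above-background signal on that array (11.3 to 19.8) and the dotted line the 95th percentile of the negative-control spots. Open points number 0, 3 and 2 on the KHSRP-KO arrays and 5, 6 and 6 on the WT arrays, and 1 gene, Olfr1509, stands far above the others.

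In the higher block all 21 members had their 3 KHSRP-KO arrays above their 3 WT arrays, where 12.4% of 48364 probes tested did, and all 21 differences exceeded the SD of either genotype. Unscaled, 11 of the 21 did, beside 4.2% of the probes. Without scaling the genotypes differ by a median of -0.29 on the log2 scale over all probes. In the limma fit 19 of the 19 higher-block members tested passed an unadjusted p under 0.05 and the study's minimum fold, beside 9.26% of 48436 probes, and the remaining 2 were too dim to be tested. The study's methods name an adjusted p for its target filter, and at an adjusted p under 0.05 the fit called no member of either block. With scan time as a block, 10 higher-block members passed the unadjusted p and the fold, beside 3.64% of probes. Without scaling 9 did, beside 2.52%. The block was selected that way, so nothing is read from these counts. The median difference of the 21 members was 0.87 on the log2 scale, against 0.57 for the other 1500 probes of the block and 0.00 over all probes tested. Within the shared scan time the median was 0.83, and 0.34 for the other probes of the block. All 21 kept the sign there, as arrays that do not overlap must, and so did 96.5% of the other probes. The member nearest to the fold threshold was Vmn2r51, with 1.41-fold in the authors' normalized values.

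**Figure D2:**
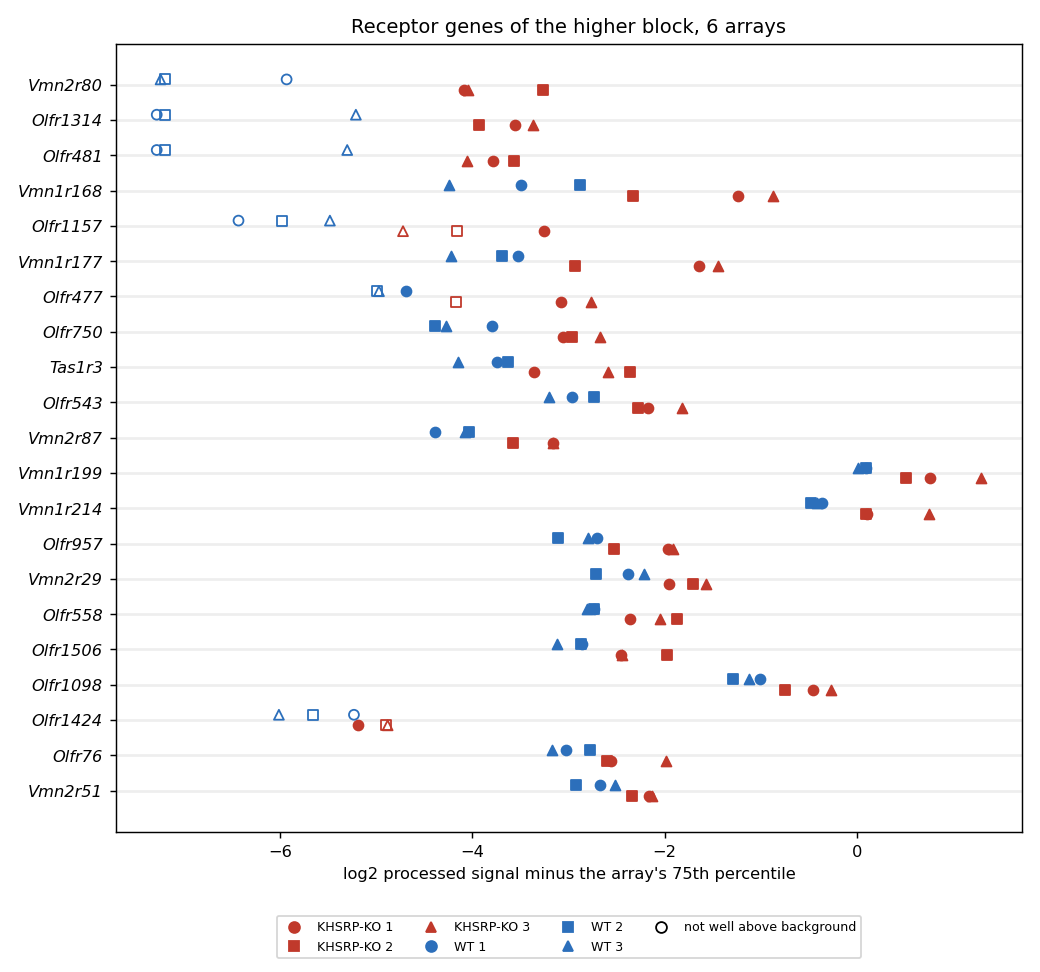
Scaled signal of the 21 receptor genes of the higher block, on the x axis as log2 processed signal minus the 75th percentile of the array, with 1 symbol per array and open symbols where the spot was not well above background. Genes are ordered by the size of their difference, and KHSRP-KO symbols lie to the right of WT symbols in every row. For Vmn2r80, Olfr1314, Olfr481, Olfr1157 and Olfr1424 the WT symbols are all open, so the distance shown is not a measured fold.

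In 3 receptors that were well above background on each KHSRP-KO array, no WT spot was. Vmn2r80, a vomeronasal receptor, had signals of 27.1, 36.4 and 21.0 on the KHSRP-KO arrays and of 8.0, 3.4 and 2.8 on the WT arrays. Olfr1314, an odorant receptor, had 39.2, 23.0 and 33.1 against 3.1, 3.4 and 11.5, and Olfr481, another, 33.5, 29.6 and 20.8 against 3.1, 3.4 and 10.8. For each of the 3, 2 of the 3 WT values are the constant that the scanner software writes for a spot not different from background, so their WT level is only a bound. The lowest well-above-background signal of each WT array was put in its place. On the scaled signal KHSRP-KO was then at least 2.16-fold higher for Vmn2r80, at least 2.45-fold for Olfr1314 and at least 2.16-fold for Olfr481. Under another background correction, normexp with an offset of 50, the log2 differences were 0.71, 0.64 and 0.66. These are smaller than the bounds, which therefore hold only for the scaled processed signal. On the KHSRP-KO arrays these spots were still dim, and Vmn2r80 and Olfr481 passed the negative-control level on only 1 of 6 arrays and Olfr1314 on 3.

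The other 3 dim members were seen less regularly. Olfr477, an odorant receptor, read 54.6, 19.5 and 50.4 on the KHSRP-KO arrays and 18.8, 15.7 and 13.5 on the WT arrays. It was well above background on KHSRP-KO 1, KHSRP-KO 3 and WT 1, and its scaled difference was 1.54 (SD 0.74 in KHSRP-KO and 0.17 in WT, n = 3 each). Olfr1157 read 48.4, 19.7 and 13.0 against 5.6, 7.9 and 9.5, with only KHSRP-KO 1 well above background. With the same replacement of its WT values KHSRP-KO was 1.83-fold higher. As only 1 of 3 KHSRP-KO arrays was measured above background, this is not a lower bound. With normexp the log2 difference was 0.51. Olfr1424 read 12.6, 11.7 and 11.7 against 13.0, 9.8 and 6.6, and its highest raw value was on a WT array. Olfr1424 has no fold above 1 at its bound, and the order of its scaled signals comes from the scaling of near-background values.

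Among genes well above background on all arrays, the largest mean differences of the higher block were those of Vmn1r168 and Vmn1r177, vomeronasal receptors of chromosome 7. Vmn1r168 had scaled signals of -1.24, -2.33 and -0.87 in KHSRP-KO and of -3.49, -2.88 and -4.24 in WT. Its difference was 2.06, or 4.16-fold (SD 0.76 and 0.68, n = 3 each). Vmn1r177 had -1.64, -2.93 and -1.45 against -3.52, -3.69 and -4.22, a difference of 1.80 or 3.49-fold (SD 0.80 and 0.37). Both were high on KHSRP-KO 1 and KHSRP-KO 3, lower on KHSRP-KO 2 and lowest on WT 3. KHSRP-KO 2 came within 0.55 log2 units of the highest WT array for Vmn1r168 and within 0.59 for Vmn1r177. Within the shared scan time the differences were 3.00 and 2.58, larger than over all arrays. With normexp they were 1.26 and 1.04 over all arrays.

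The sequence in front of this pair is almost the same, which is why it is shown. In the RefSeq annotation of build GRCm38.p6 the genes lie within 1 Mb of each other with 9 other receptor genes and 1 other gene between them, on opposite strands. The windows below run from 250 bases before to 50 bases after the annotated start, 5′ to 3′, and base 251 opens the start codon in both, so they show the sequence in front of the coding region and not a mapped transcription start. Capitals mark the bases that differ.
Vmn1r168, chr7:23540470-23540769, plus strand: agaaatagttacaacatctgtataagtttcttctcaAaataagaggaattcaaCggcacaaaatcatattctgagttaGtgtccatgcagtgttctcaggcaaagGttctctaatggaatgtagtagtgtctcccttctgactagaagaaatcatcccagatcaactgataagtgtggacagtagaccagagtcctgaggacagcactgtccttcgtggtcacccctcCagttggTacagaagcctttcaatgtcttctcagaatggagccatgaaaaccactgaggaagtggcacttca
Vmn1r177, chr7:23866400-23866699, minus strand: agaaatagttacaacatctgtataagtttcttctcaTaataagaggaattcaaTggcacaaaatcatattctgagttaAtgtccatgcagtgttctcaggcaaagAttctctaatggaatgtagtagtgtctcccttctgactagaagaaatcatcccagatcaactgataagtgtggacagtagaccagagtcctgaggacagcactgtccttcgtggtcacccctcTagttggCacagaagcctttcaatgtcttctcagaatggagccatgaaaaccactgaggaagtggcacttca
The windows differ at 6 of 300 bases (98.0% identity), all 6 before base 251. No other window among 1311 of receptor genes reached 90% identity to either. Over the 406 pairs of members' windows the median identity was 51.0%. Genes this alike may share a probe's target, and the probe sequences were not used here, so whether the 2 probes report 2 transcripts or the same one cannot be told apart.

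The remaining 13 members of the higher block were well above background on all arrays, and their differences ran from 0.50 to 1.26. Within the shared scan time they ran from 0.26 to 1.22. The largest was that of Olfr750, an odorant receptor on chromosome 14, at 1.26 (SD 0.20 in KHSRP-KO and 0.32 in WT). Its lowest KHSRP-KO array lay 0.73 above its highest WT array, a wider gap than in Vmn1r168 or Vmn1r177. Tas1r3, the subunit common to the sweet and umami receptors, followed with 1.07 (SD 0.52 and 0.28). In the annotation Tas1r3 overlaps Dvl1, a gene of Wnt signalling, and the part of Dvl1 transcripts in its signal was not tested. Vmn2r87 differed by 0.87, Olfr957 by 0.73, Vmn2r29 by 0.69, Olfr1506 by 0.66 and Olfr1098 by 0.64. Vmn2r29 had the smallest difference within the shared scan time (0.26).

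Olfr543 and Olfr558 are class I odorant receptors, the type first known from fish, and Olfr558 is also known from smooth muscle of blood vessels. Olfr543 had scaled signals of -2.17, -2.28 and -1.82 in KHSRP-KO and of -2.96, -2.74 and -3.20 in WT, a difference of 0.88 (SD 0.24 and 0.23). Olfr558 had -2.36, -1.87 and -2.05 against -2.74, -2.74 and -2.81, a difference of 0.67 (SD 0.25 and 0.04). Their KHSRP-KO and WT arrays were apart by at least 0.38 for Olfr558 and 0.46 for Olfr543. Olfr76, the neighbour of Olfr1424 on chromosome 19 with 4 receptor genes between them, had -2.56, -2.60 and -1.99 against -3.03, -2.78 and -3.17, a difference of 0.61 (SD 0.34 and 0.20).

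The brightest spots of the higher block were those of Vmn1r199 and Vmn1r214, vomeronasal receptors of one cluster on chromosome 13. Vmn1r199 had scaled signals of 0.76, 0.51 and 1.29 in KHSRP-KO and of 0.09, 0.09 and 0.01 in WT, a difference of 0.79 (SD 0.40 and 0.04). Vmn1r214 had 0.10, 0.09 and 0.75 against -0.36, -0.48 and -0.42, a difference of 0.73 (SD 0.38 and 0.06). Both were highest on KHSRP-KO 3 and nearly level across the WT arrays. Vmn1r210, another member of the cluster, came from the lower block, with -2.76, -3.27 and -2.97 against -1.85, -2.01 and -2.69, a difference of -0.81 (SD 0.25 and 0.44). Within the shared scan time it was -0.07, while those of Vmn1r199 and Vmn1r214 were 0.74 and 0.51.

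In the lower block 7 of 10 members had all KHSRP-KO arrays below all WT arrays, beside 9.9% of the 48364 probes, and Olfr215, Olfr393 and Vmn2r69 overlapped. Unscaled, 5 of 10 lay below without overlap, beside 19.1% of the probes. The fit called 9 of 10 at an unadjusted p under 0.05 and the minimum fold, beside 7.03% of 48436 probes, with Vmn2r69 the exception. With scan time as a block it called 0 of the 10, beside 2.26% of probes, and the methods' t-test called 3, beside 3.75%. As before, nothing is read from counts over a selected block. This block lists signals before normalization, and the rule by which its entries were chosen is not given in the sources used here. The members' ratios of mean signals on that scale ran from 0.291 for Olfr215 to 0.494 for Olfr97 and 0.496 for Vmn2r69, the values nearest to a ratio of 0.5. The median scaled difference of the 10 members was -1.07, against -1.08 for the other 256 entries. Within the shared scan time it was -0.23, and -0.44 for the other entries, and 8 of the 10 members had under 50% of their all-array log2 difference there.

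**Figure D3:**
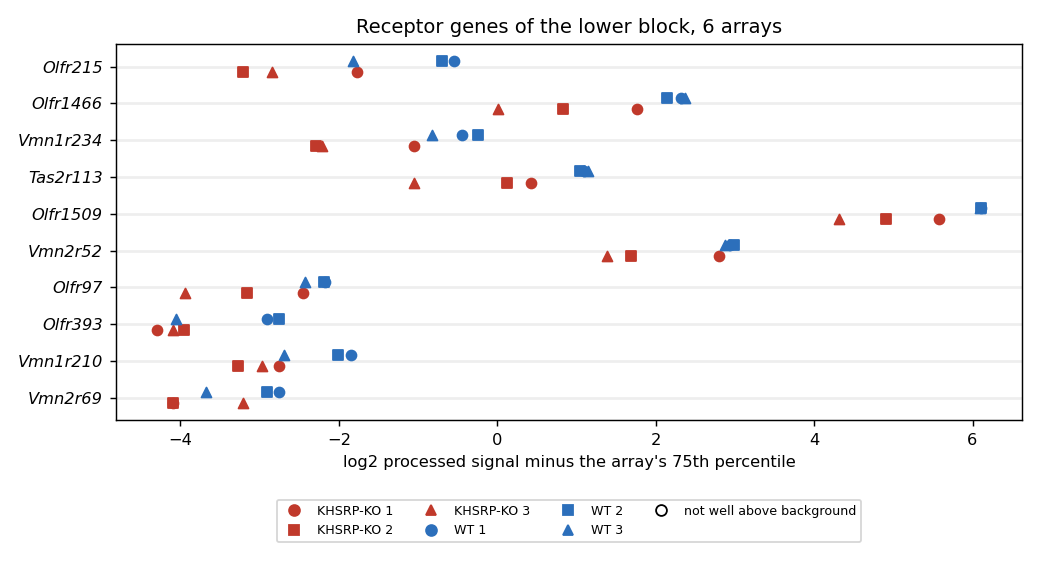
Scaled signal of the 10 receptor genes of the lower block, on the x axis as log2 processed signal minus the 75th percentile of the array, with 1 symbol per array. KHSRP-KO 1 is the rightmost KHSRP-KO symbol for 8 of the 10 genes and WT 3 the leftmost WT symbol for 8, but these are not the same genes. Olfr393 and Vmn2r69 lack the first trait, and Olfr1466 and Tas2r113 lack the second.

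The pattern over arrays was alike in most of these genes. KHSRP-KO 1 was the highest of the KHSRP-KO arrays in 8 of 10 members, as in 67.2% of the other entries of the block and 31.9% of all probes tested. WT 3 was the lowest WT array in 8 of 10, as in 48.0% of the other entries and 39.6% of all probes. The KHSRP-KO arrays were also more spread than the WT arrays, with a median SD of 0.72 against 0.22. In the other entries of the block it was 0.59 against 0.19, and over all probes tested 0.27 against 0.17. Genotype and scan time coincide on the other 4 arrays, where they cannot be told apart.

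Olfr1509, an odorant receptor that responds to a sulphur odorant of male mouse urine, gave the brightest spot of either block. Brightness of different probes is not a comparison of transcript levels. Its signals as scanned were 22029.7, 10575.0 and 6791.2 in KHSRP-KO and 33502.1, 34279.0 and 28740.2 in WT, above 94.0% of the probes on every array. Scaled, the values were 5.58, 4.91 and 4.31 against 6.11, 6.11 and 6.09. WT was thus 2.25-fold higher (difference -1.17, SD 0.64 in KHSRP-KO and 0.01 in WT, n = 3 each), and the KHSRP-KO arrays were further from each other than KHSRP-KO 1 was from WT. Within the shared scan time the difference was -0.51. In the annotation Olfr1509 overlaps the Tcra locus, which encodes the T cell receptor alpha chain, and the part of transcripts from there in its signal was not tested.

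Other lower-block genes were level in WT and highest of the KHSRP-KO arrays on KHSRP-KO 1. Olfr1466, an odorant receptor, had scaled signals of 1.77, 0.83 and 0.01 in KHSRP-KO and of 2.32, 2.14 and 2.37 in WT, a difference of -1.40 (SD 0.88 and 0.12). Tas2r113, a bitter receptor, had 0.42, 0.12 and -1.05 against 1.09, 1.05 and 1.15, a difference of -1.27 (SD 0.78 and 0.05). KHSRP-KO 3 was the lowest array for both, and without KHSRP-KO 3 the difference of Tas2r113 was -0.83. Olfr97 differed by -0.92 (SD 0.74 and 0.14), by -0.54 without KHSRP-KO 3 and by -0.03 within the shared scan time.

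A different pattern was found where WT 3 also departed from WT 1 and WT 2. Olfr215, an odorant receptor, had scaled signals of -1.77, -3.21 and -2.85 in KHSRP-KO and of -0.55, -0.70 and -1.82 in WT. Its difference of -1.59 (SD 0.75 and 0.69) was the largest of the block, yet KHSRP-KO 1 and WT 3 were level and their difference was 0.05, of the opposite sign. Vmn1r234 had -1.05, -2.29 and -2.21 against -0.44, -0.24 and -0.83, a difference of -1.35 (SD 0.70 and 0.30) and of -0.22 within the shared scan time. Olfr393 differed by -0.87 (SD 0.18 and 0.71) and Vmn2r69 by -0.68 (SD 0.51 and 0.49), with WT 3 beside the KHSRP-KO arrays in both.

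**Figure D4:**
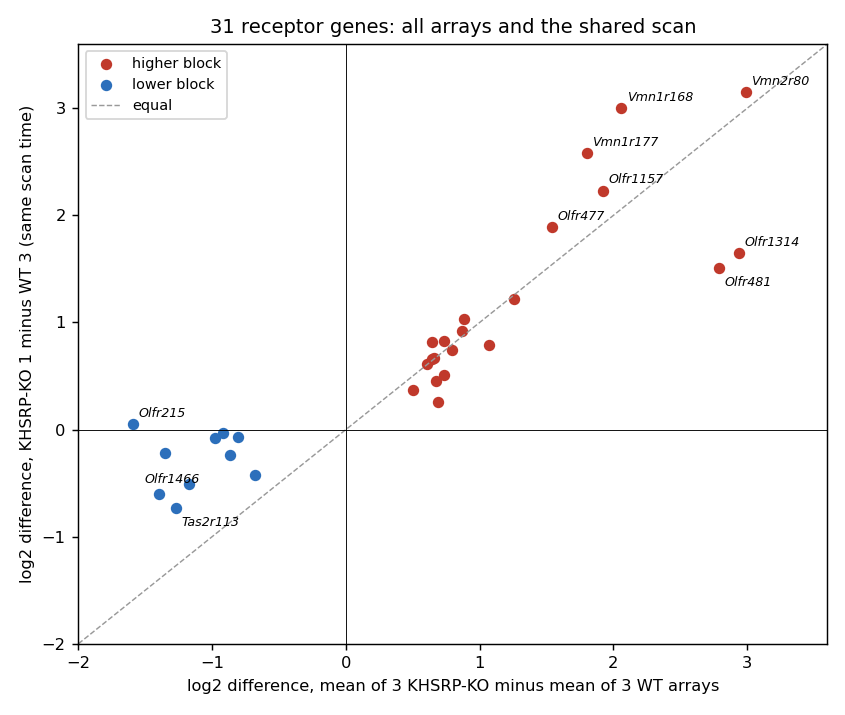
log2 difference of each of the 31 receptor genes over all arrays (x axis, mean of 3 KHSRP-KO minus mean of 3 WT) and between KHSRP-KO 1 and WT 3, which share a scan time (y axis). Higher-block genes lie around the dashed line of equal values, and lower-block genes lie above it, between -0.73 and 0.05 on the y axis, with Olfr215 on the other side of 0.

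Vmn2r51 and Vmn2r52 are next to each other on chromosome 7, with no annotated gene between them, and came from opposite blocks. Vmn2r51 had scaled signals of -2.16, -2.34 and -2.13 in KHSRP-KO and of -2.67, -2.92 and -2.52 in WT, a difference of 0.50 (SD 0.12 and 0.20), and of 0.37 within the shared scan time. Vmn2r52, one of the 3 brightest probes, had 2.80, 1.69 and 1.39 against 2.94, 2.99 and 2.88, a difference of -0.98 (SD 0.75 and 0.05), and of -0.08 within the shared scan time. KHSRP-KO 1 of Vmn2r52 thus lay within 0.08 of the lowest WT array.

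Their windows, with that of Vmn2r29, are shown because these 3 were the only members to hold CCCNNGGG, the core of the sites bound by the Olf1/EBF factors of olfactory neurons. Capitals mark that match and the start codon at base 251.
Vmn2r29, chr7:7247279-7247578, minus strand: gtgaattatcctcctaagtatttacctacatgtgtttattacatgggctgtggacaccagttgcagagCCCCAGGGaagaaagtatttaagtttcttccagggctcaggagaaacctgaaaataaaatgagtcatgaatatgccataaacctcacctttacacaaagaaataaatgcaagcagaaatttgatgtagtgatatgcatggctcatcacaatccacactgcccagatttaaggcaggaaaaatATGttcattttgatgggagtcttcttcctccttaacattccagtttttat
Vmn2r51, chr7:10105610-10105909, minus strand: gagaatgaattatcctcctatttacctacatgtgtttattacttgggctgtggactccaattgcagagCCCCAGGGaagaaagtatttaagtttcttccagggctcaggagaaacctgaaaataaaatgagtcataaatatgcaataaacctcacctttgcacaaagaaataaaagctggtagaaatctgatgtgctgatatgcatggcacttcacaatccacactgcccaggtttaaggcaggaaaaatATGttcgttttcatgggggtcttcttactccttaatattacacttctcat
Vmn2r52, chr7:10176237-10176536, minus strand: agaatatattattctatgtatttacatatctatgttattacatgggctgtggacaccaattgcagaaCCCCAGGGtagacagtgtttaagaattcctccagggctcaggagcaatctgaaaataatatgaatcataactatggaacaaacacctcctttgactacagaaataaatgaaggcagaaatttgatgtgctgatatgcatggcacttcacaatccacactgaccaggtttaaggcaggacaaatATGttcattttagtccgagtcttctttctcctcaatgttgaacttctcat
The match begins at base 69 in Vmn2r29 and Vmn2r51 and at base 68 in Vmn2r52. Vmn2r51 and Vmn2r52 were 82.8% identical and Vmn2r29 and Vmn2r51 89.1%, so the 3 matches are not separate observations. Outside the members, 11 receptor windows were at least 90% identical to that of Vmn2r29 and 7 to that of Vmn2r51, and the specificity of their probes was not tested. Vmn2r29 has a second annotated start whose window holds no match. Searched on both strands, CCCNNGGG was found in 3 of 30 member windows, in 4.02% of 1317 receptor windows and in 13.67% of all 32851 windows.

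TAATTA, the core of homeodomain sites such as those of LHX2 and EMX2, was found in 10 of 30 member windows, in 16.48% of receptor windows and in 5.29% of all windows. It was found in both blocks, in the lower block in Olfr1466, Olfr215, Olfr393 and Vmn1r234. The windows of Olfr1314 and Olfr481, the odorant receptors with a bound above, are shown as examples that hold it. TAATTA and the start codon are in capitals.
Olfr1314, chr2:112092650-112092949, minus strand: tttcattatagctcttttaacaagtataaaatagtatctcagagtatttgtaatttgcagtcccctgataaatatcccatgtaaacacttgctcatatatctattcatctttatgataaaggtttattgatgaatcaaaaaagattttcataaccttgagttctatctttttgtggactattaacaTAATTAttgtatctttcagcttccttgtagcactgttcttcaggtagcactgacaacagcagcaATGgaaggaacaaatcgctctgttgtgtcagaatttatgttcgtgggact
Olfr481, chr7:108080546-108080845, plus strand: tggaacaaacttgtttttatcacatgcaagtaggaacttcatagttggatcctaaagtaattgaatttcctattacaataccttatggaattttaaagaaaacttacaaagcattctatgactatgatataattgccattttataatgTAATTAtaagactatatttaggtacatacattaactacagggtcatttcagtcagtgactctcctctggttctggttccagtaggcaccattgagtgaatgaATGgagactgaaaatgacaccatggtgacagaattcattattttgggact
It begins at base 187 in Olfr1314 and at base 149 in Olfr481. Receptor windows are rich in A and T, with a median GC content of 36.0% against 52.7% for all windows, and 76.6% of them have the start codon at base 251. A match describes these letters and is not a mapped binding site. No window was listed for Vmn1r210 or Vmn1r214.

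All 31 symbols matched a RefSeq gene. The members lay on 11 chromosomes, 10 of them on chromosome 7 (8 higher, 2 lower) and 4 on chromosome 2 (all higher), which also carry the most receptor genes of the annotation among these chromosomes, 575 and 380. The 8 pairs of members within 1 Mb involved 13 genes. In 5 pairs both members came from the higher block and in 3 from opposite blocks. Olfr477 and Olfr481, a pair with 3 receptor genes and 1 other gene between them, were both dim and both highest on KHSRP-KO 1 as scanned. After scaling, Olfr477 was highest on KHSRP-KO 3 and Olfr481 on KHSRP-KO 2.

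**Figure D5:**
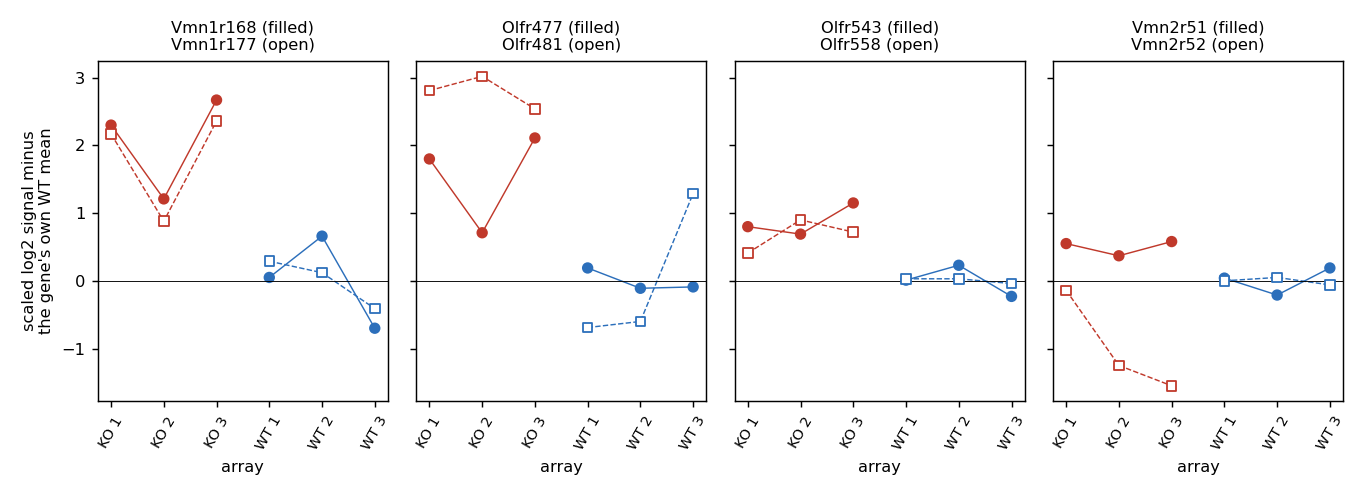
Scaled log2 signal of 4 pairs of neighbouring receptor genes on the 6 arrays (x axis), each as its difference from the gene's own WT mean (y axis), with filled circles for the first gene and open squares for the second. The symbols of Vmn1r168 and Vmn1r177 follow each other across the arrays, while Vmn2r51 and Vmn2r52 lie on opposite sides of 0 in KHSRP-KO.

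Within the higher block KHSRP-KO 2 was the lowest KHSRP-KO array for 12 of 21 members (57.1%), against 20.8% of the other probes of the block and 33.7% of all probes tested. KHSRP-KO 2 also had the smallest share of spots well above background (71.3%) and its lowest well-above-background signal was the highest of the arrays (19.8). The 12 members include Olfr477 and Olfr1314, which were dim. The others, Vmn1r168, Vmn1r177 and 8 further members, were well above background on all arrays. Whether the detection limit of KHSRP-KO 2 had a part in these values was not tested.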

How the data were processed

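Adult male mouse cortex, 3 KHSRP-KO and 3 WT samples, was hybridised by the authors to 1-colour Agilent long non-coding RNA arrays (1 array per sample). Per the file headers, the deposited scanner files hold processed signal intensity per spot, background-subtracted by the scanner software, which replaced non-significant spots by a constant and additionally detrended KHSRP-KO 3. The deposited series table holds the authors' normalized log2 values, for which limma is named in the submitters' notes, and was used as an alternative. The study's table of changed genes supplied symbols only. Lower-block entries were matched to probes by raw signals within a tolerance of 2e-05, which placed 266 of 266. The table's own fold changes and p-values were not used. The members and lists were chosen with earlier results of these data known.

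Control and outlier spots were left out, spots of a probe averaged, and log2 of the processed signal was reduced by the 75th percentile of its array. Probes with the well-above-background mark on 3 or more of 6 arrays were fitted with limma 3.58.1 in R 4.3.3 (lmFit, eBayes, Benjamini-Hochberg), and 29 of 31 members passed that filter. The fit was tested on simulated data. Every member is named, with values on each array for those not well above background on all arrays of a genotype, the 5 largest differences per block, the 3 brightest and neighbours within 1 Mb. Alternatives were other scalings, normexp with an offset of 50, the authors' values and the background-subtracted signal (chosen after seeing the data). Further ones were scan time or replicate number as a block, an unpaired Student t-test, other detection filters and each array left out. Arrays carry no counts, and the 3 arrays per genotype limit the precision. Labels do not say whether the samples were separate mice, so SDs and p-values measure the spread between these samples. Whether the replicate numbers pair the samples is not labelled, and the genotypes were compared unpaired. Promoter windows and positions came from RefSeq, GRCm38.p6. The array headers name another build, so its coordinates were joined to no probe. Windows were aligned globally with Biopython 1.88.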

Additional observations from a re-analysis of the deposited data

How the results depend on the processing

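The median difference of the higher-block members (0.87) fell to 0.58 without scaling and 0.56 with normexp, and ran from 0.74 to 0.96 with 1 array left out. That of the lower block (-1.07) ran from -1.45 to -0.87 with 1 array left out. With scan time as a block it was -0.23. For each member that fit returns the difference between KHSRP-KO 1 and WT 3, so it is not a further check beside the shared scan time. Members without overlap numbered 28, and 16 without scaling and 28 to 31 with 1 array left out. Over all probes the shares above and below were 12.4 and 9.9%, and 4.2 and 19.1% without scaling. With 1 array left out they ran from 14.1 to 24.7% above and from 11.8 to 22.3% below. Olfr215 turned from -1.59 to 0.05 with scan time as a block, the only sign change among the 31 members and the alternatives run. Over 1.5 times moved 14 members with scan time as a block, 11 without scaling, 19 with normexp, and Olfr97 and Tas2r113 without KHSRP-KO 3. The cause was not tested.

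Over all probes tested, limma called 7889 at an unadjusted p under 0.05 and the study's minimum fold, of which 56.8% were higher. With scan time as a block it called 2855. That fit estimates genotype from KHSRP-KO 1 and WT 3 alone and leaves less data for the spread. Its lower counts are therefore not read as an effect of scan time. With 1 array left out it called 4015 to 13050, with 13050 without KHSRP-KO 1, 4789 without KHSRP-KO 3, 4015 without WT 1 and 4408 without WT 2. The higher share of calls was 14.4% without scaling. At an adjusted p under 0.05, 46 probes were called, none of them a member, against 28 members at the unadjusted p. Members called at an adjusted p numbered 8 without KHSRP-KO 1, 2 without WT 3, 1 without WT 1 and 1 with the authors' values, and 0 under each other alternative run. The number over all probes was 23 without scaling and 23 when only probes detected on all arrays were kept. It was 0 with scan time as a block (smallest adjusted p = 0.0735, limma). It was 1 with the unpaired Student t-test after Benjamini-Hochberg and 6 to 2046 with 1 array left out. The highest, 2046, came without KHSRP-KO 1, 29 without KHSRP-KO 2, 12 without KHSRP-KO 3, 13 without WT 1 and 6 without WT 2. The replicate block left 1 adjusted call, and same-numbered arrays correlated at -0.31, 0.10 and -0.31 in their deviations from the group means. Same-numbered arrays also have different scan times, so these correlations cannot decide whether the numbers pair the samples. Dim signals limit the genes whose WT spots were near background.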
